A study of Schmidtea mediterranea with 24 samples.

Results

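Slit and netrin-2A are the 2 guidance genes described here, out of 82669 transcripts in the count table. They were chosen by their transcript identifiers, SmedASXL_018293 for slit and SmedASXL_014430 for netrin-2A. Both are among 33 patterning genes that the study called between yki(RNAi) and control(RNAi) tails in these same libraries. Tests between RNAi conditions below that use tails are therefore not independent of that list. RNA was sequenced from the asexual clonal CIW4 line of the planarian Schmidtea mediterranea, in 24 libraries that form 8 groups of 3. All animals were fed 3 times with double-stranded RNA, against gfp in control(RNAi) or against yki in yki(RNAi), and all received 60 Gy of γ-irradiation, the controls included. RNA was taken from intact animals 24 h after irradiation, or the animals were amputated then and their tails were taken at 6, 12 or 24 hours post amputation (hpa). A tail library pooled 15 fragments and an intact library more than 8 animals.

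Slit proteins are secreted and, in flies and vertebrates, act as repellents through Robo receptors at the midline of the nervous system. Netrins are secreted, laminin-like proteins that attract or repel growing axons through receptors of the DCC and UNC5 families. In planarians slit is expressed along the midline and its loss lets tissue collapse toward it, and many genes that mark position along the body axes are expressed in muscle. Yorkie (yki) is the transcriptional coactivator that the Hippo pathway restrains.

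Library totals ran from 11021767 to 23601139 counts, over both lanes where both were used. Levels are given as CPM, the counts of a transcript scaled by the TMM-adjusted total of its library, which are not corrected for transcript length, so the level of slit is not compared with that of netrin-2A. In whole tissue, fewer cells of a type and less RNA per cell cannot be told apart. The yki transcript checked the labels: it lay between 88.7 and 119.7 CPM in the 12 control(RNAi) libraries and between 12.5 and 18.9 CPM in the 12 yki(RNAi) libraries. A set of 60 transcripts close to absent from tails (a median tail level under 5% of an intact mean of at least 5 CPM) summed to 0.744% to 14.9% of its intact level in the tail libraries, with 14.9% in control(RNAi) 6 hpa replicate C, 9.41% in yki(RNAi) 6 hpa replicate B and 10.3% in yki(RNAi) 24 hpa replicate B.

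Slit was higher in yki(RNAi) than in control(RNAi) in intact animals and at each of the 3 tail times, and the 12 yki(RNAi) libraries all lay above the 12 control(RNAi) libraries. Its level was 24.4 to 31.8 CPM, with a median of 27.7, in control(RNAi), and 36.2 to 45.2 CPM, with a median of 38.8, in yki(RNAi). The share of all transcripts whose groups lie apart in this way was not counted, so separation here and below is description only. Netrin-2A was called higher in yki(RNAi) only in intact animals when each state was tested alone. In tails its estimates were also positive, and they passed the test when the 3 tail times were fitted together.

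In intact control(RNAi) animals slit stood at 28.4, 27.1 and 30.0 CPM in replicates A, B and C. In intact yki(RNAi) animals it stood at 37.9, 36.7 and 36.2 CPM. The groups did not overlap: the lowest yki(RNAi) library, replicate C, was above the highest control(RNAi) library, also replicate C. This gave a log2 fold change of 0.34 ± 0.086 (SE, n = 3 per group), with an adjusted p of 0.0497 by edgeR's quasi-likelihood test with Benjamini-Hochberg adjustment. A transcript was called higher when its adjusted p was under 0.05 and its fold at least 1.2, which 1.68% of the transcripts tested in intact animals met. The call sits at the threshold and was lost when any of 5 of the 6 libraries was left out, the exception being control(RNAi) replicate C.

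In control(RNAi) tails at 6 hpa slit had 28.2, 26.1 and 31.8 CPM, and in yki(RNAi) tails 36.8, 40.2 and 45.2 CPM. Slit was thus higher by a log2 fold change of 0.54 ± 0.096 (SE, n = 3 per group), with an adjusted p of 0.00787 in edgeR, beside 2.47% of transcripts called higher. Slit at 12 hpa stood apart as well: the control(RNAi) tails had 27.8, 26.7 and 27.5 CPM and the yki(RNAi) tails 43.2, 40.1 and 36.7 CPM. This was the state with the smallest spread among the control libraries, an SD of 0.571 CPM around a mean of 27.3 CPM. Its log2 fold change was 0.57 ± 0.061, with an adjusted p of 1.23e-06 in edgeR, but here 10.9% of all transcripts were called higher. At 24 hpa the control(RNAi) tails had 28.5, 24.4 and 27.6 CPM and the yki(RNAi) tails 39.3, 38.3 and 41.4 CPM. Its log2 fold change was 0.59 ± 0.077, with an adjusted p of 0.00425 in edgeR, beside 1.53% called higher. In none of the 3 tail times did the groups overlap, and the calls held when each library was left out in turn.

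**Figure D1:**
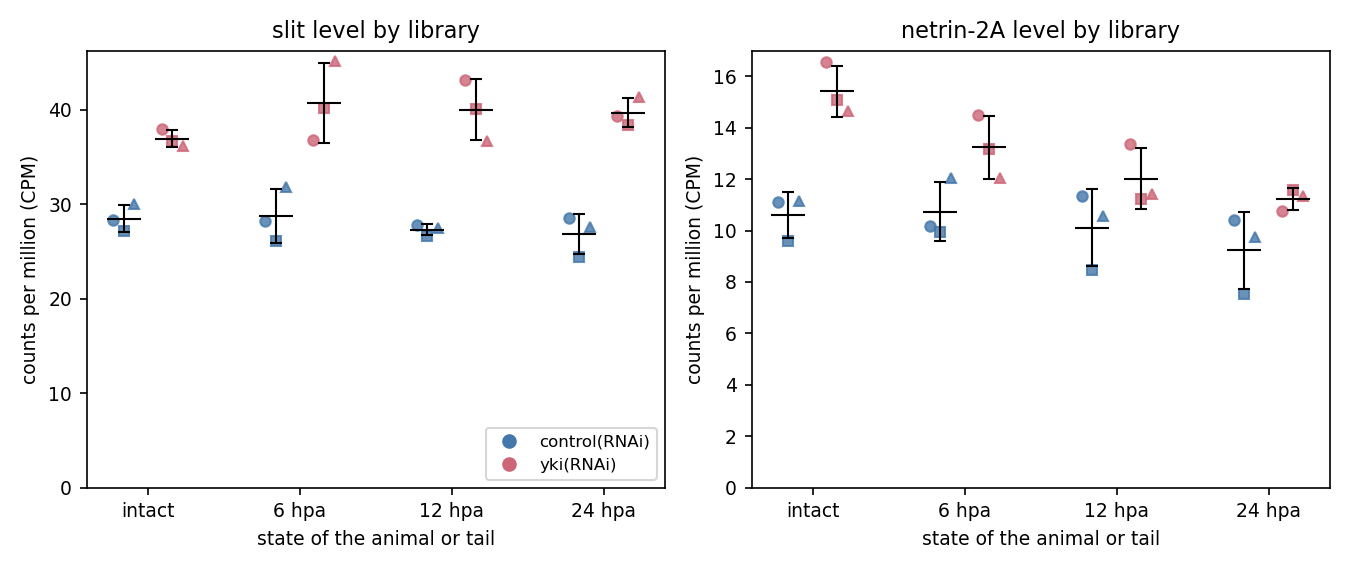
Levels of slit and netrin-2A in CPM in each of the 24 libraries, by state, with circles, squares and triangles for replicates A, B and C, and bars for the group mean ± SD. Slit separates the RNAi conditions in every state, whereas netrin-2A overlaps at 12 hpa.

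Netrin-2A had 11.1, 9.58 and 11.2 CPM in intact control(RNAi) animals and 16.5, 15.1 and 14.6 CPM in intact yki(RNAi) animals. The groups did not overlap. The log2 fold change was 0.50 ± 0.11 (SE, n = 3 per group), with an adjusted p of 0.0328 in edgeR, so both genes were called in intact animals. The call was lost without control(RNAi) replicate B or without any 1 of the yki(RNAi) replicates.

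In tails the difference in netrin-2A was smaller against its spread. At 6 hpa it had 10.2, 9.94 and 12.0 CPM in control(RNAi) and 14.5, 13.2 and 12.1 CPM in yki(RNAi), and the nearest libraries of the groups were almost equal. Its log2 fold change was 0.34 ± 0.10, with an adjusted p of 0.0907 in edgeR. At 12 hpa it had 11.3, 8.47 and 10.5 CPM in control(RNAi) and 13.4, 11.2 and 11.4 CPM in yki(RNAi), and the groups overlapped. Here it was 0.27 ± 0.10 on the log2 scale, with an adjusted p of 0.0618 in edgeR. At 24 hpa it had 10.4, 7.53 and 9.76 CPM in control(RNAi) and 10.8, 11.6 and 11.3 CPM in yki(RNAi), without overlap. The log2 fold change was 0.31 ± 0.13, with an adjusted p of 0.239 in edgeR. Control(RNAi) replicate B was the lowest library at both 12 and 24 hpa, and without it the values were 0.16 and 0.17 (adjusted p = 0.288 and 0.455 in edgeR). None of the 3 tail times passed the test alone.

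One fit over all 18 tail libraries with the time as a term, added after the data were seen, gave a log2 fold change of 0.56 ± 0.048 for slit (SE, adjusted p = 1.24e-08 in edgeR). For netrin-2A it gave 0.30 ± 0.068 (SE, adjusted p = 0.00251). In that fit 11% of transcripts passed an adjusted p of 0.05 in the higher direction. Without every replicate B the netrin-2A value was 0.21, with an adjusted p of 0.0638, and without yki(RNAi) 6 and 24 hpa replicate B and control(RNAi) 6 hpa replicate C, the libraries with the most of the transcripts close to absent from tails, it was 0.32, with an adjusted p of 0.00789. The fit over all 4 states gave 0.50 ± 0.044 for slit (adjusted p = 1.48e-09) and 0.34 ± 0.060 for netrin-2A (adjusted p = 8.50e-05 in edgeR), beside 9.59% of transcripts higher.

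**Figure D2:**
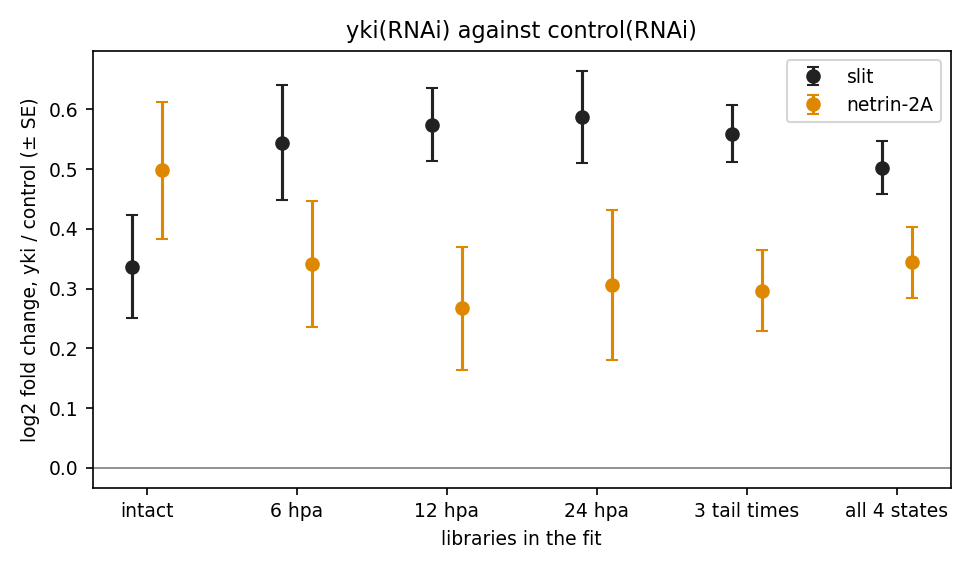
Log2 fold change of yki(RNAi) against control(RNAi) for slit and netrin-2A in each state, over the 3 tail times and over all 4 states, with bars for ± 1 SE. All 12 values are above 0, from 0.27 for netrin-2A at 12 hpa to 0.59 for slit at 24 hpa.

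A test of whether the RNAi effect differed among the 4 states gave an adjusted p of 0.517 for slit and 0.771 for netrin-2A in edgeR, where 0.365% of transcripts passed. The point estimates went in opposite directions. Against intact animals, the effect on slit was larger by 0.20 ± 0.13, 0.25 ± 0.10 and 0.25 ± 0.11 on the log2 scale at 6, 12 and 24 hpa (SE). That on netrin-2A differed by -0.16 ± 0.15, -0.21 ± 0.16 and -0.20 ± 0.17. Adjusted p-values of these interactions in edgeR were 0.149 to 0.612 for slit and 0.482 to 0.737 for netrin-2A. At 6 hpa 0% of transcripts passed, although 3045 had an unadjusted p under 0.05 and DESeq2 called 34. The shares were 5.29% at 12 hpa and 0.00648% at 24 hpa. A difference between the states was therefore not detected for either gene.

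Slit did not pass the test between tails and intact animals in either condition. With control(RNAi), its log2 fold changes from intact animals to tails were -0.09, -0.13 and -0.14 at 6, 12 and 24 hpa, with SEs of 0.077 to 0.098 and adjusted p-values of 0.308 to 0.637 in edgeR. In yki(RNAi) the values were 0.11, 0.12 and 0.11, with adjusted p-values of 0.202 to 0.541. A change of at least 2-fold was required for a call, which 3.18%, 4.09% and 4.29% of transcripts met in control(RNAi) and 2.80%, 6.18% and 9.64% in yki(RNAi). Intact libraries hold every body region and were sampled before the tails, so region, wounding and time since irradiation cannot be told apart here.

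Netrin-2A in control(RNAi) tails stood at -0.08, -0.14 and -0.25 on the log2 scale against intact animals, with adjusted p-values of 0.326 to 0.740 in edgeR. In yki(RNAi) the differences were -0.25 ± 0.097, -0.34 ± 0.094 and -0.45 ± 0.086 (SE) at 6, 12 and 24 hpa. Their adjusted p-values in edgeR were 0.164, 0.0132 and 0.0023. At 12 and 24 hpa the value thus passed on the adjusted p alone, as did 13.4% and 17.1% of transcripts in the lower direction, without reaching the 2-fold minimum. At 12 hpa the pass was lost without yki(RNAi) 12 hpa replicate B (-0.30, adjusted p = 0.0703). Each yki(RNAi) tail library at these times was below each intact yki(RNAi) library. The 3 comparisons of a condition share their intact libraries.

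**Figure D3:**
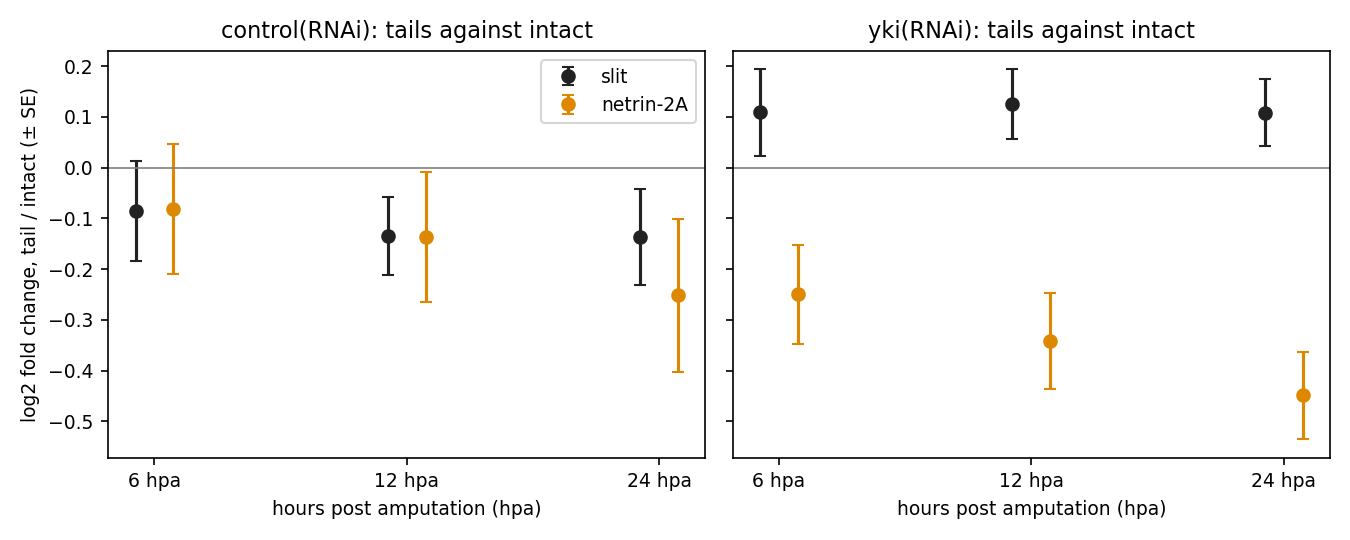
Log2 fold change of tails at 6, 12 and 24 hpa against intact animals of the same RNAi condition, for slit and netrin-2A, with bars for ± 1 SE. Netrin-2A in yki(RNAi) runs from -0.25 at 6 hpa to -0.45 at 24 hpa, and slit stays between -0.14 and 0.12 in both conditions.

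Between consecutive tail times neither gene passed the test in either condition. The log2 differences were -0.04 and -0.02 for slit in control(RNAi), 0.01 and -0.01 for slit in yki(RNAi), -0.05 and -0.13 for netrin-2A in control(RNAi), and -0.10 and -0.09 for netrin-2A in yki(RNAi). All adjusted p-values in edgeR were 0.558 or higher, while 10.4% and 17.1% of transcripts passed between these times in control(RNAi), and 11.7% and 6.70% in yki(RNAi).

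Ordered by mean level, the slit groups ran from yki(RNAi) 6 hpa (40.7 CPM), 12 hpa (40.0), 24 hpa (39.7) and intact (36.9) to control(RNAi) 6 hpa (28.7), intact (28.5), 12 hpa (27.3) and 24 hpa (26.9). Neighbours within each condition differed by less than the larger of their SDs, apart from yki(RNAi) 24 hpa and intact, whose ranges did not overlap. The order for netrin-2A began with intact yki(RNAi) animals at 15.4 CPM, whose range was apart from the next group, yki(RNAi) 6 hpa at 13.2 CPM. From there to control(RNAi) 24 hpa at 9.23 CPM each group overlapped its neighbour. The means of the yki(RNAi) tails were 13.2, 12.0 and 11.2 CPM at 6, 12 and 24 hpa.

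The counts of slit per count of netrin-2A within a library do not depend on library size. Their ratio was 2.69 ± 0.14 (SD, n = 3) in intact control(RNAi) animals and 2.68 ± 0.080, 2.74 ± 0.37 and 2.94 ± 0.27 in control(RNAi) tails at 6, 12 and 24 hpa. In yki(RNAi) it was 2.40 ± 0.094 in intact animals and 3.11 ± 0.61, 3.33 ± 0.20 and 3.54 ± 0.20 in tails. The lowest yki(RNAi) tail library at 12 or 24 hpa, at 3.21, was above the highest intact yki(RNAi) library, at 2.47.

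**Figure D4:**
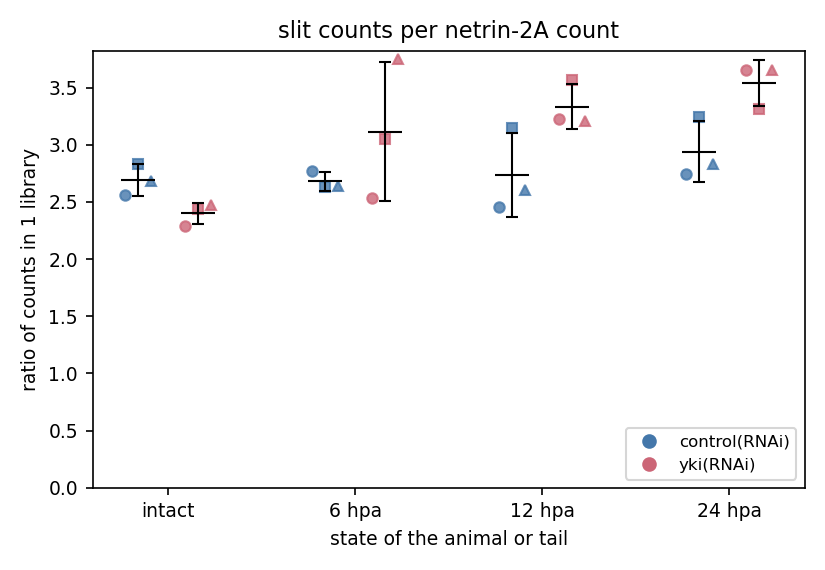
Slit counts divided by netrin-2A counts within each library, by state and RNAi condition, with bars for the group mean ± SD. In yki(RNAi) the means run from 2.40 in intact animals to 3.54 at 24 hpa, and in control(RNAi) from 2.68 at 6 hpa to 2.94 at 24 hpa.

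Across the 12 control(RNAi) libraries the levels of both genes gave a Pearson r of 0.86 and a Spearman rho of 0.81. Across the 12 yki(RNAi) libraries they gave r = -0.39 and rho = -0.43. Deviations from the group means gave r = 0.47 over 24 libraries. These are descriptions: all values of a library share its depth and scaling. Over all 24 libraries, which fall into the separate RNAi conditions, slit was most like porcnA, a gut-expressed gene of the Wnt secretion enzyme family porcupine (r = 0.86), then COE, a transcription factor of neurons (r = 0.83), wntP-3/wnt11-4 (r = 0.81), the Wnt inhibitor sfrp3 (r = 0.76) and gli-1, a Hedgehog effector (r = 0.67). Netrin-2A was most like sfrp3 (r = 0.76), msi-2 (r = 0.71), Med14 (r = 0.68) and bruli (r = 0.66). Slit and netrin-2A gave r = 0.68 with each other over the same 24 libraries. Among all transcripts, gli-1 ranked 549 by r with slit and bruli 380 by r with netrin-2A. Only the 121 transcripts with a gene name were considered for naming. Above the first of them, 55 transcripts without a name were more like slit and 67 more like netrin-2A, among 16003 with a mean of at least 2 CPM.

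Slit and netrin-2A belong to 33 patterning genes that the study listed from these same libraries, so the direction of that list is not independent evidence. The study called these genes with DESeq2 between yki(RNAi) and control(RNAi) tails at matched times, at the same adjusted p and fold limits. In the main edgeR fits here netrin-2A was not called at any tail time alone. The study also followed both genes by in situ hybridization. Of the other 31, 11 were called higher and 0 lower in intact animals. In tails the numbers higher were 11, 15 and 16 at 6, 12 and 24 hpa, and the numbers lower 2, 8 and 0. Over all transcripts, 1.68% were called higher in intact animals and 2.47%, 10.9% and 1.53% in the tails. In the same order, 1.98%, 3.49%, 11.2% and 2.53% were called lower. The median log2 fold changes of these 31 were 0.34, 0.31, 0.25 and 0.38, beside -0.01, 0.02, 0.01 and 0.00 over all transcripts. Slit was 1 of 9 genes of the 33 called higher in all 4 states, beside the posterior Hox genes Hox7b, Post-2c and Post-2d, the Wnt target axin2, sfrp-2, frz-d, dd_15686 and dd_4427. Of the 23922 transcripts tested in each state, 0.64% were called higher in all 4. The place of slit among them rests on its call in intact animals, which sits at the threshold as given above. By log2 fold change slit ranked 17, 9, 10 and 12 of 33 and netrin-2A 14, 15, 17 and 20, from intact animals to 24 hpa.

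**Figure D5:**
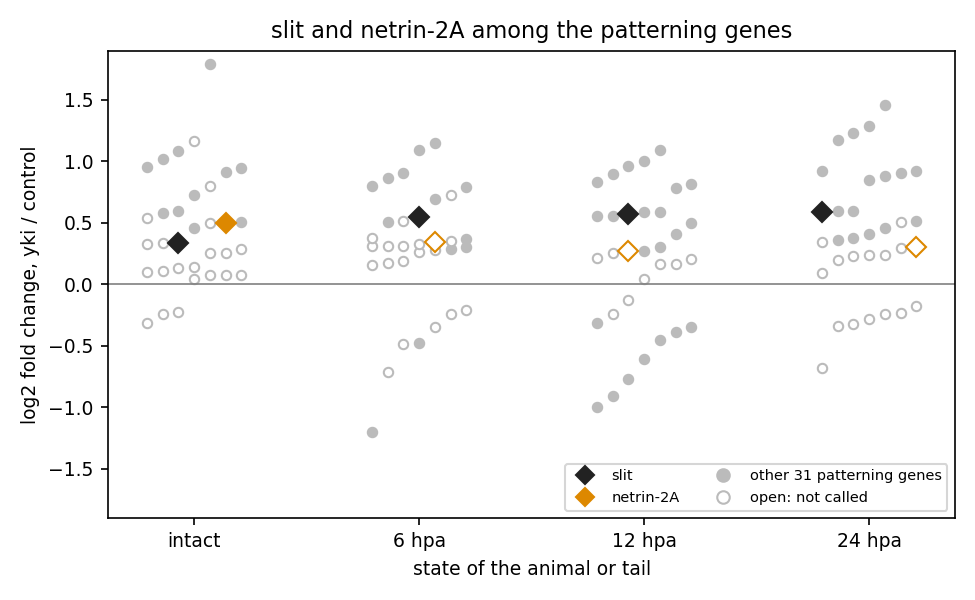
The 33 patterning genes plotted by their log2 fold change between yki(RNAi) and control(RNAi) in each state, with slit and netrin-2A as diamonds, and open symbols for genes not called. Slit is filled in all 4 states, and netrin-2A in intact animals.

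Of 11 listed genes of the mediolateral and dorsoventral axes, 8 passed the filter on low counts. Of these 3 were called between RNAi conditions, all at 12 hpa, 2 as higher and 1 as lower, where 10.9% of all transcripts were called higher and 11.2% lower. All 3 are also among the 33 genes that the study chose on these libraries, so they are not separate evidence. The higher genes were BMP4, a dorsal signal (log2 fold change 0.90 ± 0.14), and noggin-1, a BMP antagonist (0.78 ± 0.16). The lower was noggin-7, of the same family (-0.77 ± 0.081). The SMAD gene smad23 gave 0.04 ± 0.049 at 12 hpa and NKX2.1 gave -0.21 ± 0.15, neither called.

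Markers of other tissues that the samples hold were compared in the same fits. The neuronal gene COE was called higher at 6, 12 and 24 hpa (0.54, 0.63 and 0.52 on the log2 scale) and not in intact animals (0.29, adjusted p = 0.218 in edgeR), and the second neuronal marker, Cintillo, was at 0 counts in the tails. Over all transcripts, 2.47%, 10.9% and 1.53% were called higher at 6, 12 and 24 hpa. The gut gene porcnA, the only gut gene listed, was called higher in all 4 states (0.33 to 0.37), as were 0.64% of the transcripts tested in each state. Of the muscle genes, COL4A2 gave 0.41 in intact animals and -0.17, -0.40 and -0.05 from 6 to 24 hpa, and was called, as lower, at 12 hpa alone. The other, collagen-alpha-5, was called at 12 hpa alone, as higher (0.80 ± 0.13), where 10.9% of all transcripts were called higher and 11.2% lower. Its yki(RNAi) mean was below the control(RNAi) mean in intact animals (3.56 against 4.13 CPM) and at 24 hpa (8.78 against 10.7 CPM). At 6 hpa it was above (3.47 against 2.84 CPM). The study picked collagen-alpha-5 from these same libraries as a wound-induced gene raised in yki(RNAi) tails, so its direction is not independent evidence. Summed over both muscle genes, levels were 56.5 to 94.6 CPM in intact control(RNAi) and 84.9 to 104.5 CPM in intact yki(RNAi) animals. For control(RNAi) against yki(RNAi) tails they were 132 to 157 against 106 to 135 CPM at 6 hpa. At 12 hpa they were 116 to 120 against 87.5 to 99.6 CPM, and at 24 hpa 81.0 to 95.5 against 80.3 to 82.7 CPM. Most of each sum was COL4A2, with a mean of 115 CPM beside 3.33 CPM for collagen-alpha-5 in control(RNAi) at 12 hpa. Of 19 epidermal lineage genes, 19, 19, 18 and 17 were tested from intact animals to 24 hpa. The numbers called higher were 2, 1, 0 and 0, where 1.68%, 2.47%, 10.9% and 1.53% of all transcripts were higher. The numbers lower were 0, 4, 14 and 7, where 1.98%, 3.49%, 11.2% and 2.53% of all transcripts were lower. Of 6 stem cell genes, 6, 6, 5 and 4 were tested from intact animals to 24 hpa. Only bruli was called, as higher at 12 hpa (0.50 ± 0.093), where 10.9% of all transcripts were called higher. The part of these tissues in the values of slit and netrin-2A was not tested.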

How the data were processed

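The authors deposited raw counts per transcript for 2 sequencing lanes of each of 24 libraries. Per the labels and methods, poly(A) libraries were read single-end, demultiplexed with bcl2fastq 1.8.3, mapped to the SmedASXL transcripts by Bowtie2 2.2.4, and tested by the authors in DESeq2. The counting tool and its treatment of reads shared by related transcripts or isoforms are not given in the sources used here, so related netrin or slit transcripts could share reads. Another 6 deposited tables hold the authors' fold changes and p-values, which were not used as results. The names slit and netrin-2A and those of the other patterning genes were tied to transcripts only by matching p-values of the study's table with those tables.

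Lanes were summed. For yki(RNAi) intact replicate A the first lane alone was used, because rows of the second were damaged. As deposited, that second lane holds a value that is not whole and was read as estimated counts, with the damaged rows left out, in 1 alternative. The row naming no transcript (6.31% to 7.49% of counts) was left out. Slit had 353 to 1046 counts and netrin-2A 137 to 336 in a library, so counting error was 3.32% to 4.59% and 5.97% to 7.52% of a group's mean count per library.

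Each comparison was fitted on its own groups in edgeR 4.0.16 (R 4.3.3) by the quasi-likelihood F test on TMM-scaled counts. Low transcripts were removed by filterByExpr, with a min.count of 10 and a min.total.count of 15, and p-values had Benjamini-Hochberg adjustment over all transcripts tested. Calls needed an adjusted p under 0.05, with a fold of at least 1.2 or under 0.83 between RNAi conditions and of 2 for tails against intact animals. SE is the log2 fold change divided by the square root of F. DESeq2 1.42.0 was an alternative. The fits were tested on simulated data. Libraries are the study's biological replicates. Letters A to C were not used as pairs in the main fits, because in no comparison were all same-letter correlations over 0.1. Between RNAi conditions these correlations ran from -0.02 to 0.43, so that rule does not settle whether the letters mark pairs.

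Likeness is Pearson r of log2(CPM + 1) over 24 libraries, and the 5 named transcripts most like each gene are given, except 1 for netrin-2A that is not reported here. Of the mediolateral list, 5 names were added after their values were seen. The genes and lists were chosen with earlier results of these data known.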

Additional observations from a re-analysis of the deposited data

How the results depend on the processing

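Of 34 results on slit and netrin-2A, 23 kept their direction and their side of the threshold under each alternative run, among them slit at 6, 12 and 24 hpa between RNAi conditions (log2 fold changes 0.44 to 0.67, adjusted p up to 0.0412).

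In intact animals slit lost its call with DESeq2's size factors (0.33), no filter on low counts (0.35), the first lane only (0.35), both lanes of yki(RNAi) replicate A (0.33) and no normalization factors (0.34, chosen after seeing the data), at adjusted p-values of 0.0521 to 0.0912, and ran from 0.29 to 0.34 with 1 library left out. Netrin-2A there ran from 0.42 to 0.54. Netrin-2A gained a call with no normalization factors at 6 hpa (0.39) and 12 hpa (0.36). At 12 hpa it also gained one with the replicate letter as a block, which the main fits left out (0.27, adjusted p = 0.0214 in edgeR). There it gained one as well without control(RNAi) replicate A (range 0.16 to 0.35). With no fold minimum it passed in yki(RNAi) tails at 12 hpa (-0.34) and 24 hpa (-0.45).

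Steps between tail times lay near 0 and changed sign without passing. Slit in yki(RNAi) from 6 to 12 hpa gave -0.0185 with no filter, -0.0138 with all 24 libraries, -0.00982 in DESeq2, -0.0170 with the first lane, and -0.0619 to 0.0885 with 1 library left out. From 12 to 24 hpa it gave 0.00300 with all 24 libraries, 0.00324 with the first lane, and -0.0704 to 0.0514. In control(RNAi) it gave 0.00233 with the first lane and -0.0538 to 0.0458 from 12 to 24 hpa, and -0.0871 to 0.0126 from 6 to 12 hpa, where netrin-2A gave -0.139 to 0.0568.

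Counts of transcripts called moved more. Between RNAi conditions they were 935 in intact animals (260 without yki(RNAi) replicate B to 3173 without control(RNAi) replicate C), 1603 at 6 hpa (651 without yki(RNAi) replicate B to 2114), 6264 at 12 hpa (4226 to 7041) and 1121 at 24 hpa (467 without yki(RNAi) replicate B to 1759). Tails against intact animals gave 882 (627 to 1422), 1122 (873 to 1623) and 1177 (932 to 1942) in control(RNAi), and 751 (596 to 1088), 1737 (1248 to 2878) and 2672 (1876 to 4400) in yki(RNAi). Tail steps gave 2837 (810 to 3795) and 4687 (1966 to 6829), and 3248 (575 to 5089) and 1916 (564 to 2684). Interactions gave 0 (up to 473), 1664 (682 to 5008) and 2 (0 to 427), each highest without intact control(RNAi) replicate C. At 12 hpa the median transcript between RNAi conditions was 0.01 with TMM and 0.11 with no normalization factors.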
